A study of Homo sapiens with 12 samples.

Results

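The genes examined were 10 regulators of the G1 phase of the cell cycle: the D-type cyclins CCND1, CCND2 and CCND3, the E-type cyclins CCNE1 and CCNE2, the kinases CDK4 and CDK6, and the CDK inhibitors CDKN1B (p27), CDKN2C (p18) and CDKN2D (p19). They were chosen by symbol, with earlier results of these data known. All 10 were among the 54628 genes of the count table and among the 15492 that passed a filter on low counts and were tested. HUDEP-2 is an established human line of erythroid precursors immortalised so that the cells keep dividing, which is maintained in stem cell factor (SCF, the ligand of the Kit receptor), erythropoietin, dexamethasone and doxycycline. All groups were transduced with a lentivirus that expresses dCas9-KRAB, a repressor without cutting activity, and GFP, and were used as sorted populations rather than clones. Cells carried either a scrambled guide (sgControl) or a guide that recruits the repressor to an element upstream of EGR1 (sgEGR1). After 5 h without growth factors they received PBS or 50 ng/mL SCF for 1 h, which gave 4 groups of 3 libraries: sgControl PBS, sgControl SCF, sgEGR1 PBS and sgEGR1 SCF.

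D-type cyclins are made in response to growth factors and activate CDK4 and CDK6, which begin the phosphorylation of the retinoblastoma protein RB. E-type cyclins activate CDK2, complete that phosphorylation and release E2F factors, which switch on genes for DNA replication. CDKN1B holds cyclin E-CDK2 inactive and also binds cyclin D complexes, whereas CDKN2C and CDKN2D belong to the INK4 family and bind CDK4 and CDK6 directly. In erythroid precursors, Kit signaling is known for supporting proliferation, and rising levels of p27 and p18 accompany cell cycle exit during terminal maturation.

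After 1 h of SCF, CDKN1B fell and CCND1 rose in sgControl and in sgEGR1 cells. CCNE2 rose when both guides were averaged, and CDK4 and CDKN2D rose by smaller amounts in that average. No call was made for CCND2, CCND3, CCNE1, CDK6 or CDKN2C in these fits, which held no term for the replicates. With a term for replicate 1, CCNE1 was also called in both guides and CCND2 in sgControl cells, as were more genes in general. No member was called between guides. Values are CPM, counts per 1e+06 counts of a library scaled with TMM factors, which correct for differences in library composition. Differences are log2 fold changes with standard errors (SE) from the quasi-likelihood test of edgeR, and a gene was called at an adjusted p under 0.05 over all genes tested. The methods call the 3 libraries of a group biological replicates, isolated one by one, without saying whether they came from separate cultures, so p-values measure the spread between these libraries.

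The libraries held 23.5 to 32.04 megacounts (1 megacount is 1e+06 counts). EGR1, the gene next to the targeted element, lay at 5.99 to 10.9 CPM in sgControl PBS, 171 to 239 CPM in sgControl SCF and 0.977 to 2.04 CPM in sgEGR1 PBS. In sgEGR1 SCF it lay at 40.4, 57.4 and 204 CPM in replicates 1, 2 and 3, so the library labelled sgEGR1 SCF replicate 3 goes against its label. Some SCF results, though not those of every gene, are also given with it left out. Of 16 erythroid markers, 15 were detected with at least 3 counts in all 12 libraries and HBG1 in 11. Of 18 markers of other cell types, PTPRC, ITGA2B and EPCAM were detected in all 12 libraries, while CD3E, MS4A1, MPO, ELANE, PF4, GP9, VWF, COL3A1 and ALB were detected in 0. The summed level of these 18 markers was 184 to 223 CPM in sgControl PBS, 186 to 232 CPM in sgControl SCF, 173 to 203 CPM in sgEGR1 PBS and 181 to 241 CPM in sgEGR1 SCF, and its part in the results was not tested. The summed erythroid markers lay at 30000 to 33000, 29100 to 32500, 31000 to 32000 and 29700 to 30600 CPM in the same order, and SLC4A1 (-0.26, edgeR adjusted p 0.00856) and EPOR (-0.14, edgeR adjusted p 0.036) were called lower after SCF in the average over guides. In bulk samples, fewer cells of a kind and less RNA per cell cannot be told apart.

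Sequence before the transcription start is shown for the 3 called genes with an entry in RefSeq's promoter table (GRCh38.p14): CDKN1B, which fell, and CDK4 and CDKN2D, which rose. Of the 10 genes, 7 had an entry, and CCND1, CCND2 and CCNE2 had none. The runs end at the start or at the first annotated exon base, are written 5′ to 3′ on the gene's strand, and carry in capitals any of 6 motifs searched on both strands: EGR (GCGTGGG), AP-1 (TGANTCA), CRE (TGACGTCA), E2F (TTTCCCGC or TTTGGCGC), FOXO (GTAAACA) and the E-box (CACGTG).
CDKN1B, chr12:12717118-12717367, plus strand: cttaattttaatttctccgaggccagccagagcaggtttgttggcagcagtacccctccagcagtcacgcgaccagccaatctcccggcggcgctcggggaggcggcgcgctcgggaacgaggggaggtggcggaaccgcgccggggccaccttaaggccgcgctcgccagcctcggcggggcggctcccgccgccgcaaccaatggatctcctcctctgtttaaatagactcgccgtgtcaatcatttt
CDK4, chr12:57752448-57752560, minus strand: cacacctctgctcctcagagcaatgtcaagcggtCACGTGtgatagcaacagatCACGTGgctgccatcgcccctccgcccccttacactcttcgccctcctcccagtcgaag
CDKN2D, chr19:10569060-10569229, minus strand: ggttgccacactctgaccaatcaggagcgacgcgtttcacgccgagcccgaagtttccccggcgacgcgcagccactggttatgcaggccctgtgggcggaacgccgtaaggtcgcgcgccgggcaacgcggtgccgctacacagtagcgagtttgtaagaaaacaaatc

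In the 250 bases before its start, CDK4 held 3 E-boxes, the letters read by MYC and related factors, at 216, 196 and 101 bases before the start, of which the third lies in an annotated exon and outside the run shown. An E-box was present in 6.34% of all 35116 promoter windows of 250 bases. CDKN2C, which has 3 entries, held 1 E-box at 220 bases before one start and another at 69 bases before another. The EGR letters were found before 1 of 3 starts of CDKN2C, at 53 bases, and before 1 of 3 starts of CCND3, at 197 bases, beside 6.19% of all windows. None of the 6 motifs was found in the 250 bases of CDKN1B, CDKN2D, CCNE1 or CDK6. AP-1, CRE, E2F and FOXO letters, which were in 6.57%, 1.65%, 1.93% and 2.98% of all windows, were in none of the entries of these 7 genes. These matches are descriptions of the letters in this window and no measure of binding.

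CDKN1B (chromosome 12, 12717368 to 12722369, plus strand, in RefSeq on GRCh38.p14, as are all gene positions here) encodes p27, which restrains CDK2 until cells commit to S phase. In sgControl cells it lay at 95.8, 104 and 99.1 CPM in PBS replicates 1, 2 and 3 and at 54.9, 66.7 and 63.0 CPM in SCF replicates 1, 2 and 3. In sgEGR1 cells it lay at 105, 97.7 and 97.7 CPM after PBS and at 62.3, 61.5 and 62.7 CPM after SCF. Every SCF library thus lay below every PBS library, and the highest SCF value was 66.7 CPM against a lowest PBS value of 95.8 CPM. CDKN1B fell by 0.69 on the log2 scale in sgControl cells (SE 0.0651, edgeR adjusted p 0.000196), a level 1.62-fold lower, with a 95% interval from -0.84 to -0.55. It fell by 0.69 in sgEGR1 cells (SE 0.0652, edgeR adjusted p 0.000188). With the doubted sgEGR1 SCF library left out it fell by 0.69 again (edgeR adjusted p 0.00158). By p-value it ranked 14 among the 15492 genes in sgControl cells and 17 in sgEGR1 cells. Among all genes, 0.775% were called lower in sgControl cells and 0.788% in sgEGR1 cells, and CDKN1B was the 1 member called lower in each.

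CCND1 (chromosome 11, 69641156 to 69654474, plus strand), the cyclin best known as an early target of growth factor signaling, was the 1 member called higher in each guide. It lay at 8.96, 7.76 and 8.34 CPM in sgControl PBS and at 16.9, 13.8 and 13.1 CPM in sgControl SCF. In sgEGR1 cells it lay at 8.01, 8.12 and 7.36 CPM after PBS and at 15.2, 13.2 and 11.9 CPM after SCF. The 6 PBS libraries ended at 8.96 CPM and the 6 SCF libraries began at 11.9 CPM. CCND1 rose by 0.80 on the log2 scale in sgControl cells (SE 0.121, edgeR adjusted p 0.00384), which is 1.75-fold, with a 95% interval from 0.54 to 1.07. It rose by 0.78 in sgEGR1 cells (SE 0.122, edgeR adjusted p 0.00477), or by 0.87 with the doubted library left out (edgeR adjusted p 0.00685). The share of all genes called higher was 2.12% in sgControl cells and 1.81% in sgEGR1 cells. An exon of LTO1 on the opposite strand overlaps CCND1, and although the methods describe the libraries as strand-specific, no source says if counting used strand, so its counts and those of the overlapped genes named further on are uncertain to that extent.

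**Figure D1:**
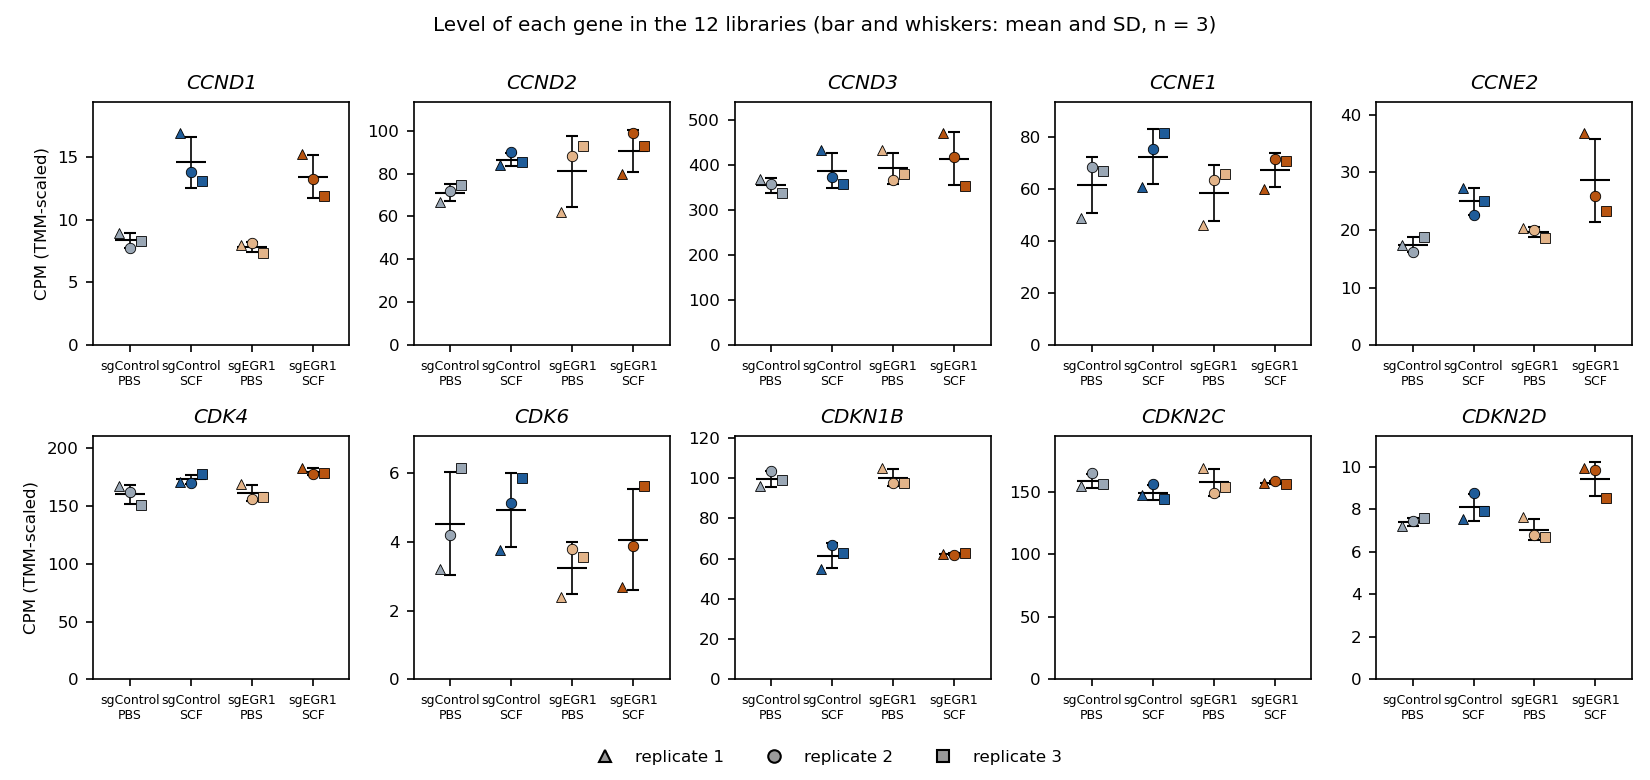
CPM of each of the 10 genes (y axis, from 0) in the 4 groups (x axis), with 1 symbol per library, its shape giving the replicate number, and the mean and SD of 3 libraries as a bar with whiskers. CDKN1B was lower in all 6 SCF libraries than in all 6 PBS libraries and CCND1 was higher, whereas replicate 1 (triangles) lay lowest in every group for CCNE1, CCND2 and CDK6.

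CCNE2 (chromosome 8, 94880224 to 94896693, minus strand), which activates CDK2 at the G1/S boundary, was higher after SCF in both guides without passing the threshold in either. It lay at 17.3, 16.2 and 18.8 CPM in sgControl PBS and at 27.3, 22.7 and 25.0 CPM in sgControl SCF. In sgEGR1 cells it lay at 20.3, 19.9 and 18.6 CPM after PBS and at 36.8, 25.8 and 23.3 CPM after SCF. The groups did not overlap in either guide, and sgEGR1 SCF replicate 1 stood above the other SCF libraries. The log2 fold change was 0.52 in sgControl cells (SE 0.143, edgeR adjusted p 0.0834) and 0.55 in sgEGR1 cells (SE 0.142, edgeR adjusted p 0.0685). Averaged over both guides, CCNE2 rose by 0.53 (SE 0.101, edgeR adjusted p 0.00608), and it kept that call under all 19 alternatives of processing. It was also called in sgControl cells when sgEGR1 SCF replicate 1 was left out and in sgEGR1 cells when sgEGR1 SCF replicate 3 was left out (0.68, edgeR adjusted p 0.0347). Exons of INTS8 on the opposite strand overlap CCNE2.

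CCNE1 (chromosome 19, 29811991 to 29824312, plus strand), the other E-type cyclin, was not called after SCF in the fit without a term for replicate 1. With that term it was called higher in sgControl (edgeR adjusted p 0.0104) and in sgEGR1 cells (edgeR adjusted p 0.0228). It lay at 49.0, 68.3 and 66.8 CPM in sgControl PBS and at 60.8, 75.1 and 81.3 CPM in sgControl SCF, ranges that overlap. In sgEGR1 cells it lay at 46.2, 63.5 and 65.7 CPM after PBS and at 59.8, 71.3 and 70.8 CPM after SCF. Replicate 1 was the lowest library of all 4 groups. The log2 fold change was 0.24 in sgControl cells (SE 0.156, edgeR adjusted p 0.565), 0.20 in sgEGR1 cells (SE 0.157, edgeR adjusted p 0.624) and 0.22 in the average (SE 0.111, edgeR adjusted p 0.269).

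The response averaged over both guides was the mean of the 2 SCF responses, with 6 libraries on each side. A call in it can rest mainly on 1 guide and is no test of a shared change. In it 4 of the 10 genes were called higher, beside 5.58% of all genes, and 1 was called lower, beside 3.45%. The median log2 fold change of the 10 genes was 0.22 and that of all genes tested was 0.00. Because the 10 were chosen with earlier results of these data known, such shares and medians are descriptions and no test of the set. The calls were CCND1 at 0.79 (SE 0.0858, edgeR adjusted p 0.000142), CCNE2 as above, CDKN2D, CDK4 and, downward, CDKN1B at -0.69 (SE 0.0461, edgeR adjusted p 4.5e-06).

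CDK4 (chromosome 12, 57747727 to 57752310, minus strand), the kinase partner of D-type cyclins, changed by the smallest called amount. It lay at 167, 162 and 151 CPM in sgControl PBS and at 171, 170.2 and 178 CPM in sgControl SCF. In sgEGR1 cells it lay at 169, 156 and 158 CPM after PBS and at 183, 178 and 178 CPM after SCF. The groups did not overlap, although 167 and 170.2 CPM lay next to each other. CDK4 rose by 0.13 in the average (SE 0.0337, edgeR adjusted p 0.0261), with 0.11 in sgControl cells (edgeR adjusted p 0.305) and 0.16 in sgEGR1 cells (edgeR adjusted p 0.114). The averaged call was lost when sgControl PBS replicate 3, sgControl SCF replicate 3, sgEGR1 PBS replicate 2, sgEGR1 PBS replicate 3 or sgEGR1 SCF replicate 1 was left out (adjusted p up to 0.07). Exons of TSPAN31 on the opposite strand overlap CDK4.

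CDKN2D (chromosome 19, 10566460 to 10568979, minus strand), an INK4 inhibitor of CDK4 and CDK6, was the 1 inhibitor that rose in the average, by 0.27 (SE 0.0728, edgeR adjusted p 0.0345). It lay at 7.23, 7.44 and 7.60 CPM in sgControl PBS and at 7.54, 8.80 and 7.95 CPM in sgControl SCF, which overlap. In sgEGR1 cells it lay at 7.62, 6.82 and 6.70 CPM after PBS and at 9.97, 9.85 and 8.52 CPM after SCF, which do not. The log2 fold change was 0.12 in sgControl cells (SE 0.103, edgeR adjusted p 0.681) and 0.42 in sgEGR1 cells (SE 0.103, edgeR adjusted p 0.054). The averaged call was held in 3 of the 12 fits that left out 1 library each, those without sgControl SCF replicate 1, sgEGR1 PBS replicate 1 or sgEGR1 SCF replicate 3. It was also lost without the filter on low counts, and the adjusted p reached 0.0849 at most.

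CDKN2C (chromosome 1, 50960745 to 50974634, plus strand), the other INK4 inhibitor, was among the steadiest genes. It lay between 144 and 169 CPM in all 12 libraries. The log2 fold change was -0.08 in sgControl cells (SE 0.0523, edgeR adjusted p 0.538) and -0.04 in the average, with a 95% interval from -0.12 to 0.04. The 3 inhibitors therefore gave 3 results in the average: a fall of CDKN1B, a small rise of CDKN2D, and no call for CDKN2C. An unnamed annotated gene on the opposite strand overlaps an exon of CDKN2C.

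CCND2 (chromosome 12, 4273762 to 4305353, plus strand) and CCND3 (chromosome 6, 41934933 to 42050035, minus strand), the other D-type cyclins, were not called after SCF in the fit without a term for replicate 1. CCND2 lay at 67.0, 71.7 and 74.6 CPM in sgControl PBS and at 84.0, 89.9 and 85.6 CPM in sgControl SCF, which do not overlap. In sgEGR1 cells CCND2 lay at 62.2, 88.3 and 92.7 CPM after PBS and at 79.6, 98.8 and 93.0 CPM after SCF, which overlap. Its log2 fold change was 0.28 in sgControl cells (SE 0.124, edgeR adjusted p 0.316), 0.16 in sgEGR1 cells (SE 0.124, edgeR adjusted p 0.631) and 0.22 in the average (edgeR adjusted p 0.152). CCND3, which ranged from 338 to 470 CPM over the 12 libraries, gave 0.10 in the average (SE 0.072, edgeR adjusted p 0.464). Annotated genes on the opposite strand overlap exons of both, and one on the same strand overlaps CCND2.

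CDK6 (chromosome 7, 92604921 to 92836573, minus strand), the other kinase partner of D-type cyclins, had the lowest level and the widest spread. It ranged from 2.38 to 6.17 CPM, with SDs of 21.9% to 36.2% of the group mean. Its averaged log2 fold change was 0.22 (SE 0.214, edgeR adjusted p 0.615), and its 95% interval from -0.25 to 0.69 was the widest of the 10. That interval holds the averaged change of CCNE2, 0.53, so a change of that size was not excluded for CDK6 in this fit. CDK6-AS1 on the opposite strand overlaps CDK6.

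**Figure D2:**
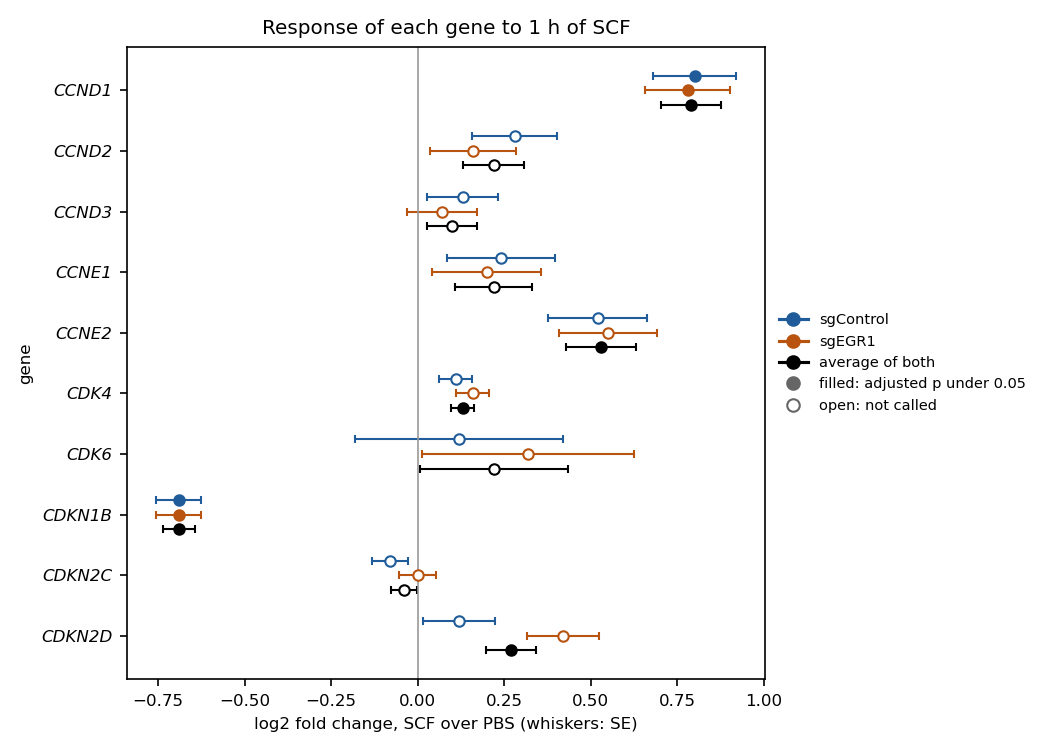
Log2 fold change of SCF over PBS (x axis) for each gene (y axis) in sgControl cells, in sgEGR1 cells and averaged, with whiskers of 1 SE and filled points for an edgeR adjusted p under 0.05. CDKN1B at -0.69 and CCND1 at 0.78 to 0.80 lay farthest from 0 and gave nearly the same value in both guides.

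Counting genes by separation of the libraries gave a wider group. In sgControl cells CCND1, CCND2, CCNE2, CDK4 and CDKN1B, 5 of 10, had PBS and SCF libraries that did not overlap in CPM, beside 19.6% of all genes. In sgEGR1 cells these were CCND1, CCNE2, CDK4, CDKN1B and CDKN2D, again 5 of 10, beside 21.2% of all genes. CCND1, CCNE2, CDK4 and CDKN1B were separated in both guides. In the sgEGR1 comparison this count includes the library labelled sgEGR1 SCF replicate 3, which held the lowest SCF value for CCND1, CCNE2 and CDKN2D.

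Replicate 1 stood apart from replicates 2 and 3 in all groups, and the labels do not say what the numbers share. In a fit with a term for replicate 1, 5 of the 10 genes were called between it and the others: CCND1 and CCND3 higher, beside 13.1% of all genes, and CCND2, CCNE1 and CDK6 lower, beside 13.4%. CCNE1 was lower, at -0.39 on the log2 scale (edgeR, adjusted p 1.48e-05), as was CDK6, at -0.67 (adjusted p 0.0023). CCND2 was lower too, at -0.24 (edgeR adjusted p 0.00791), while CCND1 and CCND3 were each higher by 0.21 (edgeR adjusted p 0.0275 and 0.00281). The CCND1 call was lost with DESeq2 and without the filter on low counts (adjusted p up to 0.0636), whereas that of CCND3 held. For CCNE1 the difference of replicate 1 was larger in size than the SCF response in either guide. For CCND2 its size lay between the responses of sgEGR1 cells (0.16) and sgControl cells (0.28).

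With that term in the model, more of the 10 genes were called for SCF, as were more genes in general. In sgControl cells CCND1, CCND2, CCNE1 and CCNE2 were called higher, 4 of 10 beside 5.28% of all genes, and CDKN1B lower, beside 3.04%. CCNE1 gave 0.24 (SE 0.0512, edgeR adjusted p 0.0104) and CCND2 gave 0.29 (SE 0.0771, edgeR adjusted p 0.0386), fold changes close to those without the term and with smaller errors. In sgEGR1 cells CCND1, CCNE1, CCNE2, CDK4 and CDKN2D were called higher, 5 of 10 beside 5.04%, and CDKN1B lower, beside 3.52%. In the average 6 of 10 were called higher, beside 10.2%, and CDKN1B lower, beside 8.29%, which left CCND3, CDK6 and CDKN2C without a call. With replicates 2 and 3 only, CCND1, CCND2, CCNE1, CCNE2 and CDKN1B were called in sgControl cells. No share of all genes is given for that fit, so these calls are no result about the members as a set.

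The guides were compared directly to ask whether interference at EGR1 changed these genes. EGR1 itself was not called, with a log2 difference of -2.59 after PBS (SE 0.801, edgeR adjusted p 0.999) and -1.03 after SCF (SE 0.45, edgeR adjusted p 1). The value after SCF includes the doubted library, at 204 CPM beside 40.4 and 57.4 CPM in sgEGR1 SCF replicates 1 and 2. Therefore 0 calls for other genes in this comparison do not show that they were the same in both guides. After PBS edgeR called 0 of the 10 genes and 0 of all genes (0%), with 0 members and 715 genes at an unadjusted p under 0.05. After SCF it called 0 of the 10 and 0 of all genes (0%), with 1 member, CDKN2D, and 361 genes at an unadjusted p under 0.05. DESeq2 called 0 members in both, and 20 and 5 genes over the whole table. CDKN1B differed between guides by 0.01 after PBS, with a 95% interval from -0.13 to 0.15, and by 0.02 after SCF, from -0.13 to 0.16. CCND1 differed by -0.09 after PBS, from -0.36 to 0.18, and by -0.12 after SCF, from -0.38 to 0.14. CDKN2D differed by 0.22 after SCF (SE 0.102, edgeR p 0.0493, adjusted p 1), or by 0.29 with the doubted library left out (adjusted p 1). CDK6 had the largest difference in size after PBS, at -0.47 (SE 0.307, edgeR adjusted p 0.999), with an interval from -1.14 to 0.19. These edgeR fits hold no replicate term, although same-numbered libraries of both guides deviated together. With the replicate number as a block, no member was called after PBS, beside 0.0129% of all genes. In that fit CDK6 gave -0.46 (SE 0.147, edgeR p 0.00861, adjusted p 0.33). CCND3 gave 0.15 (edgeR p 0.0171, adjusted p 0.379) and CCND2 0.18 (edgeR p 0.0476, adjusted p 0.483).

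The interaction tested whether the SCF response itself differed between guides, with positive values for a higher log2 fold change in sgEGR1 cells. It was called for 0 members and for 0 of all genes (0%), with 0 members and 306 genes at an unadjusted p under 0.05, and DESeq2 called 0 members and 4 genes. For CDKN1B it was 0.01, with a 95% interval from -0.19 to 0.21. For CCND1 it was -0.02, from -0.40 to 0.35, and for CCNE2 0.03, from -0.41 to 0.47. CDKN2D gave the largest value, 0.30 (SE 0.146, edgeR p 0.0627, adjusted p 1), from -0.02 to 0.62. With the doubted library left out these were 0.00 for CDKN1B, 0.06 for CCND1, 0.16 for CCNE2 and 0.37 for CDKN2D, each with an adjusted p of 1.

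Levels were compared between genes only as CPM per kilobase of merged exon length. On that scale CCND3 was highest, at 67.2 ± 7.09 (SD over 12 libraries), followed by CDK4 at 54.5 ± 3.25 and CDKN2C at 51.5 ± 2.29. CCNE1 lay at 26.4 ± 4.08, CCND2 at 10.3 ± 1.42 and CDKN1B at 8.74 ± 2.18. CDKN2D lay at 5.32 ± 0.715, CCNE2 at 5.15 ± 1.28, CCND1 at 2.32 ± 0.701 and CDK6 at 0.342 ± 0.102. The neighbours CDK4 and CDKN2C, CCND2 and CDKN1B, and CDKN2D and CCNE2 overlapped and kept their order in only 8, 8 and 9 of 12 libraries. These means pool both treatments, and with merged exon length the order of CDKN1B and CCND2 turned between them. In sgControl cells CDKN1B lay at 10.8 ± 0.423 and CCND2 at 8.90 ± 0.48 after PBS, against 6.65 ± 0.654 and 10.8 ± 0.381 after SCF (SD, n = 3). In sgEGR1 PBS the group means of CDKN1B and CCND2 were 10.8 and 10.1, and in sgEGR1 SCF they were 6.72 and 11.3. With the length of the longest transcript in place of merged exons, CDKN1B passed CCND2 and CCNE2 passed CDKN2D, and the order of the other genes was the same. With that length CDKN1B lay above CCND2 in the group means after PBS and after SCF, so the turn between treatments depended on the length used.

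The same scale gives the makeup of each family, as a description. In sgControl PBS, CCND3 made up 85.2% ± 1.06 of the summed level of the 3 D-type cyclins, CCND2 12.4% ± 1.06 and CCND1 2.43% ± 0.16 (SD, n = 3). After SCF the share of CCND1 was 3.77% ± 0.187 in sgControl cells, against 2.06% ± 0.149 after PBS and 3.29% ± 0.101 after SCF in sgEGR1 cells. The cyclin with the clearest response was thus the least abundant of the 3 before and after SCF. CCNE1 made up 86.0% ± 2.43 of the E-type cyclins in sgControl PBS and 83.6% ± 3.21 in sgControl SCF, groups whose values overlap. CDK4 made up 99.3% ± 0.275 of the summed level of CDK4 and CDK6 in sgControl PBS, and CDK6 made up 1.02% at most in any library. With the longest transcript the shares of CCND3 and CCND1 in sgControl PBS were 92.3% and 1.23%.

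**Figure D3:**
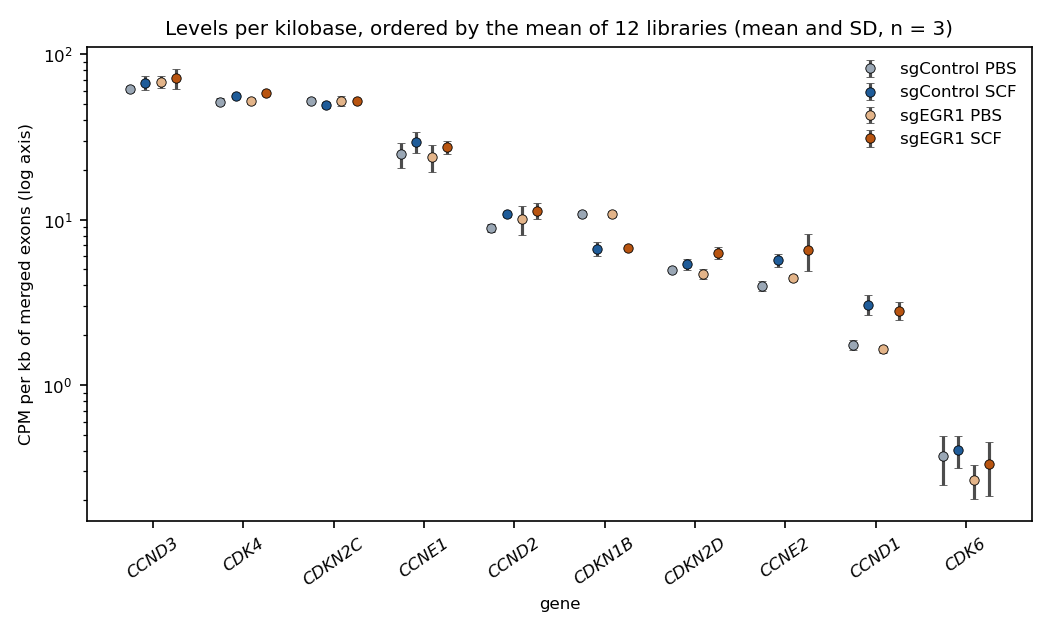
CPM per kilobase of merged exons (y axis, logarithmic) of the 10 genes (x axis, in order of their mean over 12 libraries) in the 4 groups, as mean and SD of 3 libraries. CCND3, CDK4 and CDKN2C lay highest at 67.2, 54.5 and 51.5 on average, and CDK6 lowest at 0.342.

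Other genes of the pathway were described from 4 lists. Among other CDKs, activators and inhibitors, 10 of 12 listed genes were tested (CDK7 and CDKN1C did not pass the filter), with 1 called higher and 0 lower in the average, where 5.58% of all genes were called higher and 3.45% lower. That gene was CDC25A, the phosphatase that removes inhibitory phosphates from CDK2. CDC25A lay at 28.7 ± 2.32 CPM in sgControl PBS and 53.6 ± 3.3 in sgControl SCF, and at 29.3 ± 0.825 and 53.4 ± 1.29 CPM in sgEGR1 cells (SD, n = 3). It rose by 0.88 in the average (SE 0.0469, edgeR adjusted p 1.15e-06) and was called in both guides, with a log2 fold change larger than that of any of the 10 genes. CDKN1A, the other tested inhibitor of the CDKN1B family, had low group means of 1.09 to 1.44 CPM. It gave 0.01 (SE 0.2, edgeR adjusted p 0.985), a value of little precision. CDKN2A and CDKN2B, further INK4 genes, had group means of 345 to 369 CPM and 11.4 to 11.8 CPM. They gave -0.03 and -0.02 (edgeR adjusted p 0.783 and 0.946). CDK2, the kinase of E-type cyclins, gave 0.07 (SE 0.0351, edgeR adjusted p 0.266).

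Of the 10 E2F and DP factors, all tested, 4 were called higher and 0 lower in the average, beside 5.58% and 3.45% of all genes, with a median of 0.08. E2F3, an activator of S-phase genes, rose by 0.28 (SE 0.0471, edgeR adjusted p 0.00288) and was also called in sgControl cells (0.34, edgeR adjusted p 0.0179). The sgControl call was lost without sgControl PBS replicate 2, sgControl PBS replicate 3 or sgControl SCF replicate 1 (adjusted p up to 0.0897). E2F6, E2F7 and E2F8, which act as repressors, rose by 0.41, 0.46 and 0.26 (edgeR adjusted p 0.0148, 0.0393 and 0.00575). The call of E2F7 held in 3 of 12 fits with a single library removed, those without sgControl PBS replicate 1, sgEGR1 PBS replicate 1 or sgEGR1 SCF replicate 3 (adjusted p otherwise up to 0.0947). E2F1, E2F2 and E2F4, the last a partner of RB family repressors, gave 0.03, 0.00 and -0.01 (edgeR adjusted p 0.64, 0.994 and 0.933).

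In the RB family and the DREAM complex, which represses cell cycle genes in quiescence, 0 of 8 tested genes were called higher and 1 lower in the average, beside 5.58% and 3.45% of all genes, with a median of -0.10. LIN54, the DNA-binding subunit of DREAM, fell by 0.27 (SE 0.0622, edgeR adjusted p 0.0174), a call lost without sgEGR1 SCF replicate 2 (adjusted p 0.0505). RB1, RBL1 and RBL2 gave -0.08, -0.03 and -0.12 (edgeR adjusted p 0.286, 0.718 and 0.106). Among 8 tested genes for the turnover of G1 cyclins and inhibitors, 0 were called higher and 1 lower, beside the same 5.58% and 3.45%, with a median of 0.04. FBXO31, which directs cyclin D1 to degradation, fell by 0.24 (SE 0.0514, edgeR adjusted p 0.0116) and was called in sgEGR1 cells too (-0.33, edgeR adjusted p 0.0352). The averaged call was lost with replicates 2 and 3 only (adjusted p 0.0576). The sgEGR1 call was lost in 7 of 12 fits with a single library removed: sgControl PBS replicate 2, sgEGR1 SCF replicate 3 (adjusted p 0.0591) and any of the other 5 sgEGR1 libraries. SKP2, the adaptor that marks p27 for degradation, and its cofactor CKS1B gave 0.06 and 0.11 (edgeR adjusted p 0.603 and 0.273). With the doubted sgEGR1 SCF library left out, CDC25A, E2F3, E2F6, E2F7, E2F8, LIN54 and FBXO31 were all still called in the average (edgeR adjusted p 9.12e-06 to 0.0485).

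**Figure D4:**
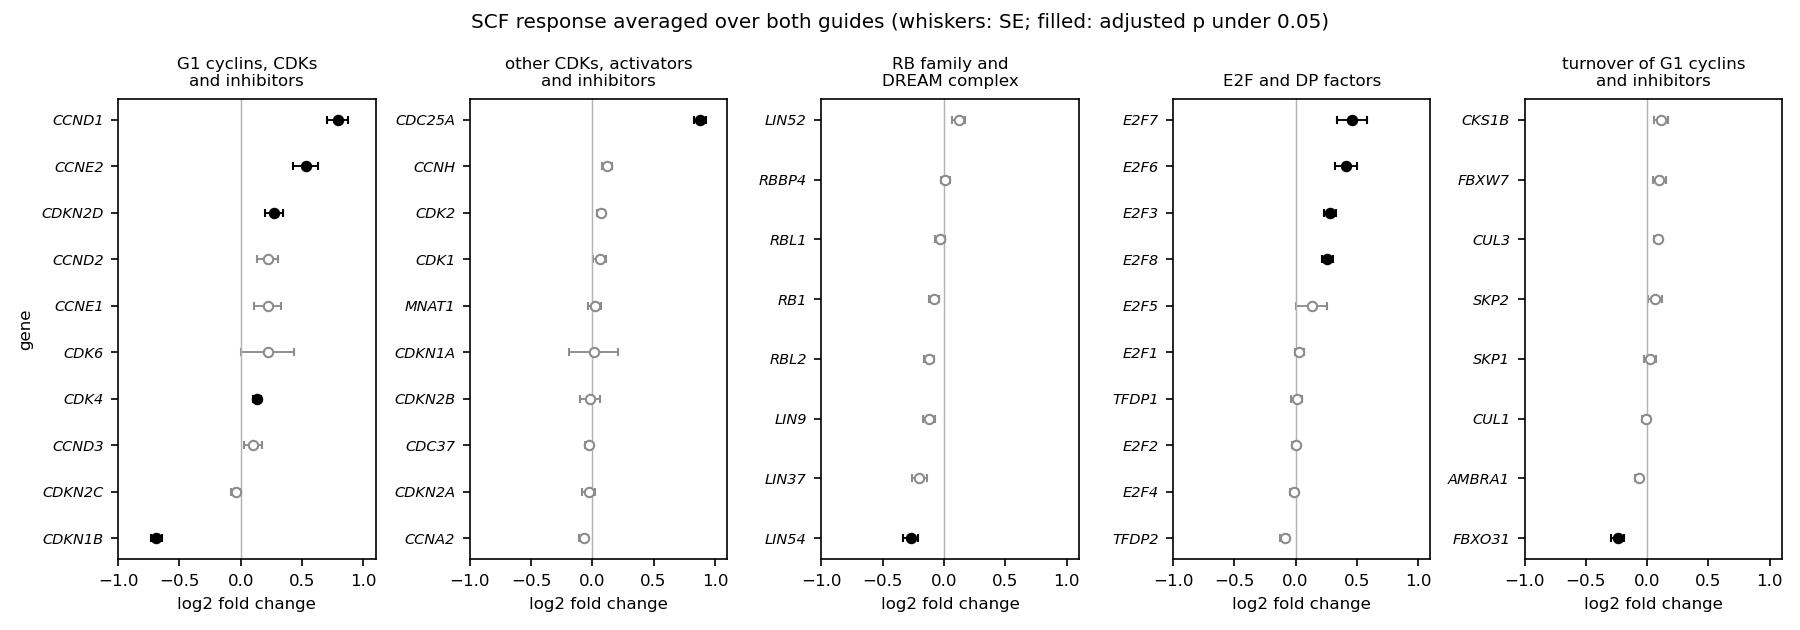
Log2 fold change after SCF averaged over both guides (x axis, whiskers of 1 SE) for the 10 genes and for the tested genes of 4 pathway lists (y axes, sorted by value), with filled points for an edgeR adjusted p under 0.05. Called genes outside the 10 were CDC25A and 4 E2F factors upward and LIN54 and FBXO31 downward.

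The genes whose log2 CPM over the 12 libraries was most like that of a called member were listed for the 3 members with the lowest p in the average, among 11178 genes with a mean of at least 2 CPM. For CDKN1B these were TRIM59, a ubiquitin ligase (Pearson r 0.98, Spearman rho 0.944), CITED2, a transcriptional coregulator (r 0.977, rho 0.846), and ZKSCAN8, a zinc finger protein (r 0.97, rho 0.776). For CCND1 they were DUSP2, a phosphatase of MAP kinases (r 0.98, rho 0.923), PPP1R15B, a phosphatase subunit that acts on eIF2α (r 0.977, rho 0.93), and DDX3X, an RNA helicase (r 0.977, rho 0.902). For CCNE2 they were CEBPG, a bZIP factor (r 0.949, rho 0.881), CHSY1, a chondroitin sulfate synthase (r 0.946, rho 0.881), and ANKRD42, an ankyrin repeat protein (r 0.932, rho 0.937). All points share the split between PBS and SCF libraries, so these values describe likeness in these 12 libraries and carry no test.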

How the data were processed

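RNA-seq was performed on HUDEP-2 cells in 4 groups of 3 libraries, grouped by the sample titles. The deposited values are estimated counts per gene, which the authors made with StringTie from HISAT alignments on hg38 and did not scale for depth or length. Each library has 1 column. The methods describe strand-specific libraries, for which the labels name another kit. The annotation release and the use of strand in counting were not given in the sources used here. The columns give guides by code, and the code that is not the scrambled control was read as sgEGR1, the sole other guide of the labels. All values were whole (0 exceptions), rounding changed nothing, and library totals were 23.5 to 32.04 megacounts. No 2 replicates agreed within sampling noise (chi-square per gene 4.36 to 20.5).

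Counts were fitted with edgeR 4.0.16 (R 4.3.3; filterByExpr, TMM, glmQLFit and glmQLFTest) with 1 coefficient per group over all 12 libraries, and p-values were adjusted by Benjamini-Hochberg over 15492 genes. SEs were derived from the F statistic. DESeq2 1.42.0, other size factors, no filter, a term for replicate 1, the replicate number as a block, replicates 2 and 3 only, each library left out and fewer groups in the fit were alternatives. The procedure was tested on simulated counts. Same-numbered libraries of both guides deviated together after PBS (correlations 0.232, 0.103 and 0.119) and after SCF (0.269, 0.102 and 0.126), so the numbers paired the guides by the rule of over 0.1 for every pair, whereas PBS and SCF libraries did not meet it. Exon lengths and overlaps came from the GENCODE annotation on GRCh38.

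The members and lists were chosen with earlier results of these data known. All 10 members were named, as were genes of the 4 pathway lists called in the averaged response or either guide. Chosen after their values were seen were CDKN1A, CDKN2A, CDKN2B, CDK2, E2F1, E2F2, E2F4, RB1, RBL1, RBL2, SKP2 and CKS1B.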

Additional observations from a re-analysis of the deposited data

How the results depend on the processing

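CCND1 and CDKN1B were called in each guide and in the average under every alternative run, and CCNE2 in the average. Of 1210 alternative values of single members, 1154 stayed on the same side of the threshold, 17 lost a call, 39 gained one and 0 called values changed sign. Some uncalled values near 0 did change sign, such as CDK6 in sgControl cells (-0.07 to 0.41). In sgControl cells, where 2 members were called, the replicate block gave 4, and the term for replicate 1, replicates 2 and 3 only, and the term for replicate 1 without sgEGR1 SCF replicate 3 each gave 5. In sgEGR1 cells, also with 2, DESeq2 gave 5, the replicate block 6, the term for replicate 1 gave 6, and that term without sgEGR1 SCF replicate 3 gave 5. In the average, with 5, that last fit gave 8, the replicate block 7, and leaving out 1 library gave 3 to 5. Between PBS and SCF, the replicate 1 libraries deviated together, with correlations of 0.272 in sgControl and 0.23 in sgEGR1 cells. Their highest correlations with other numbers were -0.124 and -0.108. For replicates 2 and 3 the correlations were 0.00766 to 0.108, and not every library correlated best with its own number. The replicate block changed no member's call between guides or for the interaction, with 0 members in each. Over all genes it gave 1184, 1235 and 2799 calls in sgControl cells, sgEGR1 cells and the average, against 448, 402 and 1399 without it. The term for replicate 1 gave 1289, 1326 and 2868 calls over all genes in the same order. For the other fits the member counts stand without a share of all genes and are no result about the members as a set. The number of libraries, 3 per group, limits the precision of each value, most of all for CDK6, whose SDs were 21.9% to 36.2% of the group mean at 56 to 187 counts per library.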
